A study of Sus scrofa with 6 samples.

Results

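APOA1, APOA4 and APOB encode apolipoproteins, the protein parts of the particles that carry lipid. They were followed here as 191 of the 53269 sequence windows listed for 6 small RNA libraries of pig duodenum. Windows were taken by position: those on chromosome 9 at the APOA4 and APOA1 genes (50 and 36 windows) and those on chromosome 3 at APOB (105 windows). A further 9 windows fell between APOA4 and APOA1 and were kept apart. Each window is a stretch of 201 genomic bases with a whole-number count, and the same stretch listed in several libraries was counted once for each.

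The libraries came from Sutai piglets killed at 28 days of age, all housed alike, and the groups were set by the M307 site of FUT1, a fucosyltransferase gene. The AA piglets 524 and 2129 were resistant to Escherichia coli F18 by genotype and the GG piglets 512, 2134 and 2383 were sensitive. Piglet 524 is a full sib of 512, and 2129 is one of 2134. For piglet 2383 no sib is in the data, since sequencing of that AA animal failed according to the labels. Piglet 512 was sequenced in 2 runs, which were summed and counted as 1 animal, so that n was 2 AA and 3 GG. No label records a bacterial challenge, and the M307 genotype stands for the phenotype.

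In the enterocyte, APOB is the scaffold of the chylomicron, the particle in which absorbed fat leaves the cell for the lymph. Each chylomicron carries a single APOB molecule, whereas APOA4 and APOA1 sit on the surface of particles and can move between them. APOA1 is also the main protein of high-density lipoprotein and activates the enzyme that esterifies its cholesterol, and APOA4 is made mostly in the small intestine and rises with fat absorption. In the liver and intestine APOB is made from a very long mRNA, of which intestinal cells edit a codon so that a shorter protein results. A library of small RNA does not measure whole mRNA, and windows in these genes hold short fragments of their transcripts or of the opposite strand, since the lists give no strand.

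The total listed count ran from 42354 in GG piglet 2383 to 192861 in GG piglet 2134, and the lists of AA piglets 524 and 2129 held 56334 and 127075. No window had fewer than 5 counts, so an unlisted window may have had fewer or may have been removed by a filter. The 10 highest windows took 15.4% and 11.3% of the counts in AA against 5.25% to 11.3% in the GG libraries. Mitochondrial windows took 8.16% to 9.35% in the AA piglets and both runs of piglet 512, and 1.66% and 1.97% in GG piglets 2134 and 2383. These percentages include a whole-mitochondrion record where a list holds one, as 4 libraries do. What part of them came from that record was not counted. No windows were named for cell types, so the tissue label was not checked against markers, and in a bulk tissue fewer cells of a type and less RNA per cell cannot be told apart.

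The windows of APOA4 reached over chr9:42996630-42999257 and those of APOA1 over chr9:43011429-43013360, in the coordinates of the files, whose genome build is not given in the sources used here. Merging overlapping windows left 3 regions in each gene, covering 1798 bases of APOA4 and 1335 bases of APOA1. RefSeq for the Sscrofa11.1 assembly places the genes in the order APOA4, APOC3, APOA1 on chromosome 9, and the windows kept apart lay where APOC3 stands in that order. The windows of APOB reached over chr3:109165406-109174456 in 12 regions covering 5793 bases. Translated without reference to any protein, 8 of these 12 regions were open from end to end on the plus strand and 0 on the minus strand. The longest open frame was 422 codons in APOB on the plus strand and 335 codons in APOA4 on the minus strand. In APOA1 the longest frame was 257 codons on plus and 218 on minus, so the frames alone did not give its strand, and the minus strand was used as for its neighbour. No protein or exon table was used, so exon limits were not placed.

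The following stretches show where windows of separate piglets fell together. They are written 5′ to 3′ on the strand given, and in the first 3 the capitals mark the bases covered in every library that listed the site. A site is a group of windows whose starts follow each other within 20 bases. The APOA1 site (chr9:43012111-43012311, minus strand) was listed in 4 piglets, the APOA4 site (chr9:42997628-42997828, minus strand) in all 5, and the first APOB site (chr3:109172543-109172743, plus strand) in 4. The last stretch (chr3:109174194-109174258, plus strand) belongs to an APOB site listed in all 3 GG piglets and in no AA piglet, and is shown up to the end of its open frame, with the stop codon in capitals.
APOA1: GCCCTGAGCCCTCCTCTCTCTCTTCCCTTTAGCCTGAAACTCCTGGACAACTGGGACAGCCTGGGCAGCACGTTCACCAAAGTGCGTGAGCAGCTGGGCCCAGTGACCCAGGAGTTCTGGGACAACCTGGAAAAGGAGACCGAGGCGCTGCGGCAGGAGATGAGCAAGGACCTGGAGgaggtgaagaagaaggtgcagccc
APOA4: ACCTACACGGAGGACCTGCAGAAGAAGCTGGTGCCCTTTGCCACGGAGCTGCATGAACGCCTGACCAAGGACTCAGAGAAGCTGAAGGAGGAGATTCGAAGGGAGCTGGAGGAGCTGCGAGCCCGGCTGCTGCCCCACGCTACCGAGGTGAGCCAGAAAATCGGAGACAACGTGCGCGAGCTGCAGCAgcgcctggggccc
APOB: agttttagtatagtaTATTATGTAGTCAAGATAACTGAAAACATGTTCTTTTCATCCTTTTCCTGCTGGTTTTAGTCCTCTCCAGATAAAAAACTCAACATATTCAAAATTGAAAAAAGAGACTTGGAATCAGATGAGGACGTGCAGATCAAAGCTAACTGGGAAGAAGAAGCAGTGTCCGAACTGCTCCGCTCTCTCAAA
APOB end: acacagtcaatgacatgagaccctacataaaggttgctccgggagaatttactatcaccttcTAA
The APOA1 and APOB windows each hold a pyrimidine-rich run that ends in AG, the form of a splice acceptor, so a window can reach beyond the mature transcript. The APOA1 stretch had a GC content of 60.7% and the APOA4 stretch 63.2%, against 36.8% in the longer APOB stretch. The same contrast held over all windows, with medians of 62.9% in APOA1, 61.7% in APOA4 and 40.3% in APOB, beside 46.8% over the 53269 windows of the series. No window elsewhere shared a run of 30 bases with a window of these genes, but only listed windows were searched, not the genome.

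Each of the 3 genes took a larger share of the counts in every GG piglet than in either AA piglet. Such separation was common: by counts scaled between libraries, it was found in 583 of the 2762 features tested (21.1%). As a share of all listed counts the GG mean was 4.21 times the AA mean for APOA1, 2.97 times for APOA4 and 7.79 times for APOB. No gene passed the adjusted test over all features, and the size of the differences depended on AA piglet 524, which was lowest for each gene.

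APOB, the chylomicron scaffold, had 5 listed counts in AA piglet 524 and 83 in AA piglet 2129. It had 151 and 155 in the runs of GG piglet 512, 471 in GG piglet 2134 and 194 in GG piglet 2383. As shares of listed counts these were 0.00888% (exact 95% interval 0.00288 to 0.0207) in 524 and 0.0653% (0.0520 to 0.0810) in 2129. The GG shares were 0.164% in 512, 0.244% in 2134 (0.223 to 0.267) and 0.458% in 2383 (0.396 to 0.527), so the lowest GG share lay above the highest AA share. Piglet 2383 had the fewest listed counts of any library and the highest APOB share, whereas piglet 524, with more counts in all, had a single APOB window at the listing minimum. The intervals cover counting error only, and less than all of it where overlapping windows counted the same reads. The mean of the AA group was 0.0371% ± 0.0399 (SD, n = 2), and that of the GG group 0.289% ± 0.152 (SD, n = 3). A two-sided exact permutation test over the 10 splits of the piglets gave p = 0.2, where the smallest p it allows is 0.1.

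APOA1, the protein of high-density lipoprotein, had the highest counts of the 3 genes in every library other than 524. Its listed counts were 15 and 253 in AA piglets 524 and 2129, 481 and 441 in the runs of GG piglet 512, 575 in 2134 and 267 in 2383. Its shares were 0.0266% (exact 95% interval 0.0149 to 0.0439) and 0.199% (0.175 to 0.225) in the AA piglets. They were 0.495% in 512, 0.298% in 2134 (0.274 to 0.324) and 0.630% in 2383 (0.557 to 0.710). The groups did not overlap, but the AA piglets differed more from each other than piglet 2129 did from its GG sib 2134. The AA mean was 0.113% ± 0.122 (SD, n = 2), the GG mean was 0.475% ± 0.167 (SD, n = 3), and the same two-sided exact permutation test gave p = 0.2.

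APOA4, the apolipoprotein made chiefly by enterocytes, had the smallest ratio between the groups. Its listed counts were 27 and 134 in the AA piglets, 133 and 138 in the runs of 512, 400 in 2134 and 140 in 2383. The shares were 0.0479% (exact 95% interval 0.0316 to 0.0697) in 524 and 0.105% (0.0884 to 0.125) in 2129. In GG they were 0.146% in 512, 0.207% in 2134 (0.188 to 0.229) and 0.331% in 2383 (0.278 to 0.390). The highest AA and the lowest GG value lay close together, and run 1 of piglet 512 alone, at 0.138% (0.116 to 0.164), had an interval that reached below the upper bound of piglet 2129. The means were 0.0767% ± 0.0407 (SD, n = 2) and 0.228% ± 0.0942 (SD, n = 3), with p = 0.2 in the two-sided exact permutation test.

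**Figure D1:**
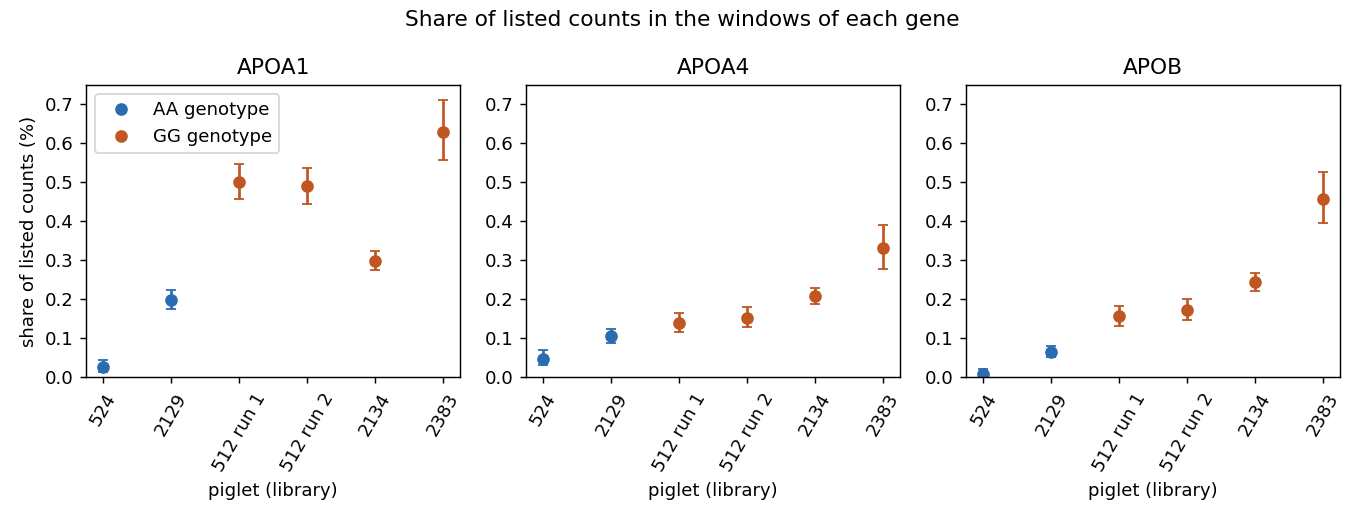
Share of all listed counts (y axis, percent) in the windows of APOA1, APOA4 and APOB for each library (x axis), with exact 95% binomial intervals as bars, blue for AA and orange for GG. AA piglet 524 is lowest for each gene, at 0.0266%, 0.0479% and 0.00888%, and GG piglet 2383 is highest, at 0.630%, 0.331% and 0.458%.

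The repeat runs of piglet 512 give the technical spread of a share. Run 2 over run 1 was 0.981 for APOA1, 1.11 for APOA4 and 1.10 for APOB. These ratios measure repeat sequencing of 1 animal and say nothing of the spread between animals. The runs did not list the same sites throughout: 5 sites of APOA1 were in both, of 7 in run 1 and 6 in run 2. For APOA4 6 sites were in both, of 7 and 10, and for APOB 11, of 18 and 16.

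Within the sib pairs each gene was higher in the GG animal, by unequal amounts. How many of all features were higher in the GG animal of both pairs was not counted. In the fit over all 5 piglets given below, 58.3% of the 2762 features tested were higher in GG. The APOB share of GG piglet 512 was 18.5 times that of AA piglet 524, and that of GG piglet 2134 was 3.74 times that of AA piglet 2129. For APOA1 the ratios were 18.6 and 1.497, and for APOA4 3.04 and 1.97. The APOB ratio of the first pair rests on 5 counts in piglet 524. APOA4 showed nearly the same gap in both pairs when counted in percentage points, 0.0976 and 0.102.

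The share of a gene also depends on what else fills the library, so the 3 genes were set beside all other features in 1 fit. Counts were scaled by the trimmed mean of M-values, each unlisted region was given 2 counts, and limma was fitted to log2(scaled count + 1) over 2762 features, the 3 genes among them with 1 feature each. Scaled counts of APOA1 were 25.01 and 247 in AA piglets 524 and 2129 and 523, 510 and 419 in GG piglets 512, 2134 and 2383. The mean was 484 ± 56.4 (SD, n = 3) over the GG piglets and 136 ± 157 (SD, n = 2) over the AA piglets, which stood far apart. The log2 difference, GG minus AA, was 2.59 (SE 0.87) with a limma adjusted p = 0.537.

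APOB had scaled counts of 35.5 and 94.0 in piglets 524 and 2129 against 180, 419 and 312 in GG piglets 512, 2134 and 2383. Its means were 64.8 ± 41.4 (SD, n = 2) and 304 ± 120 (SD, n = 3), a log2 difference of 2.29 (SE 0.53) with a limma adjusted p = 0.537. Behind the value of piglet 524 were 5 listed counts and 22 filled in for 11 unlisted regions, and in piglet 2129 14 were filled in beside 83. With 0 counts for each unlisted region the log2 difference of APOB was 3.50, and with 4 counts 1.81. With the sib pair as a replicate block, a fit with 1 residual degree of freedom to which piglet 2383 adds nothing in the contrast, APOB passed at 2.23 (SE 0.34, limma adjusted p = 0.0249).

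APOA4 had scaled counts of 38.2 and 132 in piglets 524 and 2129 against 154, 355 and 218 in GG piglets 512, 2134 and 2383. The means were 85.0 ± 66.2 (SD, n = 2) and 242 ± 103 (SD, n = 3), a log2 difference of 1.67 (SE 0.59) with a limma adjusted p = 0.537. Its lowest GG value, in piglet 512, was close to the higher AA value, in piglet 2129. In the paired fit the limma adjusted p was 0.0538 for APOA4 and 0.0838 for APOA1, both short of the threshold of 0.05.

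Limma called 0 of the 2762 features (0%) at an adjusted p under 0.05, with a smallest adjusted p of 0.368. The paired fit called 44, all higher in GG. At an unadjusted p under 0.05, 177 features (6.41%) were higher in GG and 57 lower, with the 3 genes among the 177; no tool other than limma was run. In 583 features (21.1%) every GG piglet had a higher scaled count than every AA piglet, as in the 3 genes, so separation of the groups is common in these lists. In 364 features (13.2%) every GG piglet was lower. The median log2 difference of all features was 0.20, and 58.3% were above 0. In order of log2 difference APOA1 stood at place 25, APOB at 40 and APOA4 at 127 of 2762.

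**Figure D2:**
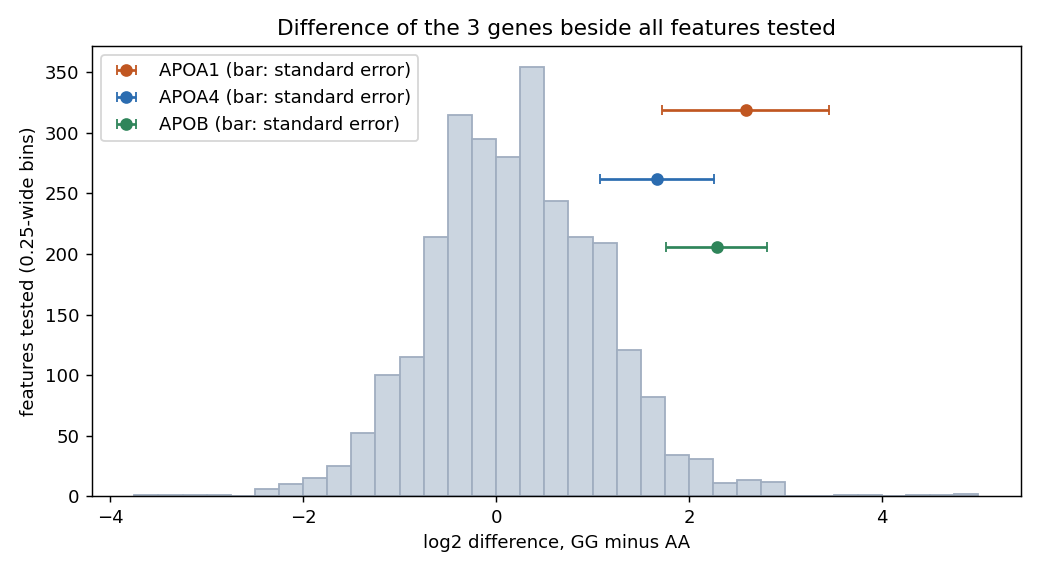
Number of features (y axis) by log2 difference, GG minus AA (x axis, bins 0.25 wide), for all 2762 features tested, with the 3 genes as points at arbitrary height and their standard errors as bars. APOA1 at 2.59, APOB at 2.29 and APOA4 at 1.67 lie in the upper tail of a distribution with its median at 0.20.

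Leaving out AA piglet 524 left a single AA animal, assumed to vary like the rest, and brought the log2 difference to 0.87 for APOA1, 0.70 for APOA4 and 1.51 for APOB. Leaving out AA piglet 2129 gave 4.24, 2.57 and 3.00. The direction was the same in all of these, and the AA group holds 1 low and 1 intermediate animal rather than 2 alike. Shares taken over totals without the mitochondrial and the 10 highest other windows gave a ratio of the GG to the AA mean of 3.88 for APOA1, 2.67 for APOA4 and 7.05 for APOB, each lower than over full totals, and the groups still did not overlap.

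**Figure D3:**
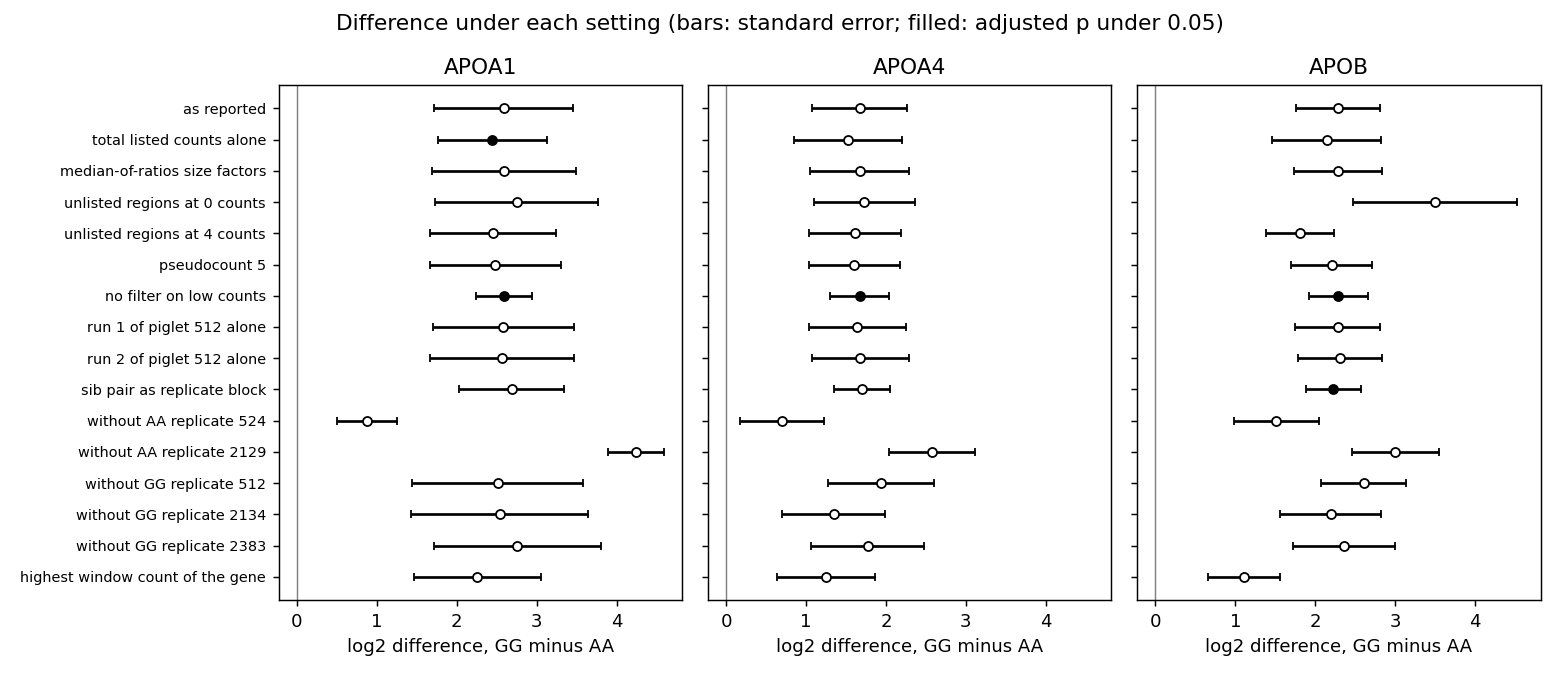
Log2 difference, GG minus AA (x axis), of APOA1, APOA4 and APOB under each processing setting (rows), with standard errors as bars and filled points where the limma adjusted p was under 0.05. All points lie above 0, and the lowest for APOA1 and APOA4, 0.87 and 0.70, are those without AA piglet 524.

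The higher APOB totals went with more listed windows, and differences in the highest window were smaller. APOB windows numbered 1 and 10 in the AA piglets, 18 and 16 in the runs of piglet 512, 40 in 2134 and 20 in 2383. The highest APOB window held 5 counts in 524, 16 in each of 2129, both runs of 512 and 2383, and 31 in 2134. As shares of listed counts these were 0.00888% in 524, 0.0126% in 2129, 0.0166% and 0.0178% in the runs of 512, 0.0161% in 2134 and 0.0378% in 2383. The groups did not overlap, but 2383 alone stood far above the rest. By the share of its highest window APOA4 did not separate the groups, with 0.0178% and 0.0378% in AA and 0.0371%, 0.0337% and 0.151% in GG piglets 512, 2134 and 2383. Taking the highest window in place of the sum in the limma fit, the log2 difference was 1.11 for APOB, against 2.26 for APOA1 and 1.25 for APOA4. APOA1 had a like number of windows in all libraries other than 524, 7 in 2129 and 6 to 8 in GG, with 2 in 524, and its highest window held 10 and 113 counts in AA and 115 to 209 in GG. Depth sets how many windows reach 5 counts, so windows were also counted above a common minimum, equal in each library to the share that 5 counts are of the shallowest. On that footing APOB had 0 and 1 windows in AA and 6, 6, 5 and 20 in GG, APOA1 1 and 6 against 7, 5, 5 and 7, and APOA4 2 and 3 against 5, 4, 6 and 7.

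Joined over libraries, the windows made 49 sites in APOB, 16 in APOA4 and 12 in APOA1. The same joining of windows over the whole lists gave 27970 sites, of which no AA piglet listed 58.3%, so that a site missing in AA is common. In APOB 39 of the 49 sites (79.6%) were listed in no AA piglet, in APOA4 9 of 16 (56.2%) and in APOA1 4 of 12 (33.3%). The APOA4 share was close to that of all sites, the APOA1 share below it and the APOB share above it, with no test made, since sites of a gene are not replicates. A site listed in no AA piglet can overlap windows that are. The APOB site at chr3:109166159-109166359, listed in 2134 alone, overlaps the site at chr3:109166202-109166405, which had 16 counts in AA piglet 2129. By merged region, AA piglet 2129 listed 5 of the 12 APOB regions and AA piglet 524 listed 1. The share of all merged regions listed in no AA piglet was not counted. Of the 49 APOB sites 18 were listed in piglet 2134 alone, the deepest library, beside 40.9% of all sites. Sites that no GG piglet listed were 0 in APOB, 0 in APOA4 and 2 in APOA1, beside 14% of all sites. In APOB, 4 sites (8.16%) were listed in all 3 GG piglets and in no AA piglet, beside 1.08% of all sites, and in APOA4 1 and in APOA1 0 were. Of the 4 in APOB, 2 are next to each other at the end of the gene and 1 is the first site listed.

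With 2 counts given to each unlisted region, the end of APOB carried its largest regional difference. The stop codon of the open frame, a TAA, lay at positions 109174256 to 109174258 of chromosome 3, 198 bases before the last listed base. The last site (chr3:109174255-109174456) starts at the stop and so covers the bases after it; it had 0 counts in both AA piglets, 12 and 13 in the runs of piglet 512, 31 in 2134 and 15 in 2383. The site before it, printed above up to the stop, had 0 counts in both AA piglets, 12 and 11 in the runs of 512, 16 in 2134 and 15 in 2383. Every GG library thus listed both sites and neither AA library listed either. The merged region around them (chr3:109173887-109174456) had 0 and 6 counts in AA and 29, 31, 71 and 42 in the GG libraries, a log2 difference of 3.41 (SE 0.46, limma adjusted p = 0.299). Neither AA piglet reached 10 counts there, so the region was tested only because GG piglets did. The value of piglet 524 was the 2 counts filled in, so the difference depends on the fill and cannot test the groups. The other 6 APOB regions with enough counts to test had log2 differences of 1.20 to 2.67. Of these, chr3:109165406-109165707, chr3:109167927-109168303 and chr3:109169512-109170098 also reached 10 counts in GG piglets alone. The difference between regions was not tested. Since the region was singled out among 12 after its values were seen, its value is a description.

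At the start of the listed APOB stretch, the first region (chr3:109165406-109165707) was listed in no AA piglet, with 7 and 10 counts in the runs of 512, 18 in 2134 and 7 in 2383. Both AA values in the fit were the 2 counts filled in, and the region was tested only because GG piglets reached 10 counts. Its log2 difference of 1.98 (SE 0.51, limma adjusted p = 0.533) therefore depends on the fill and cannot test the groups. The next region, chr3:109165750-109166824, was the only one of the 12 listed in every library, with 5 and 37 counts in AA, 60 and 55 in the runs of 512, 135 in 2134 and 47 in 2383. Its log2 difference was 2.33 (SE 0.68, limma adjusted p = 0.533). The middle of the stretch, between chr3:109168694 and chr3:109171611, was thinly covered. Sites there had at most 13 counts in any library and were listed in 2134, 2383 and run 2 of 512 but in no AA piglet. Of all APOB counts, the last region held 0% and 7.23% in AA and 15.1% to 21.7% in GG, which in piglet 524 rests on 5 counts in all.

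On the minus strand the 3′ side of APOA1 and APOA4 is the low end. The region nearest the 3′ limit made up 67.9% of the covered bases of APOA1 and 70.6% of those of APOA4. It held 78.0% to 84.4% of APOA1 counts in every library other than 524, where it held all 15. In APOA4 it held 63.0% and 72.4% in AA and 68.1% to 75.7% in GG, near its part of the covered length, and the genotypes overlapped. The site at the 3′ limit of APOA1 (chr9:43011429-43011649) was the highest of the gene in every library but 524, with 0 and 113 counts in AA, 182 and 209 in the runs of 512, 189 in 2134 and 115 in 2383. In piglet 524 APOA1 was listed at 2 sites, and 1 of these, with 10 counts (chr9:43011569-43011769), was listed in no other library. The APOA4 site with the most counts over all libraries, whose sequence is printed above, had 7 and 48 counts in AA, 29 and 27 in the runs of 512, 65 in 2134 and 64 in 2383. The site of APOA4 at chr9:42998502-42998716 had 10 and 37 in AA, 39 and 30 in 512, 57 in 2134 and 29 in 2383, and its region had the smaller log2 difference of the 2 tested in APOA4, 1.14 (SE 0.45) against 1.82 (SE 0.65). Limma adjusted p was 0.533 for both.

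**Figure D4:**
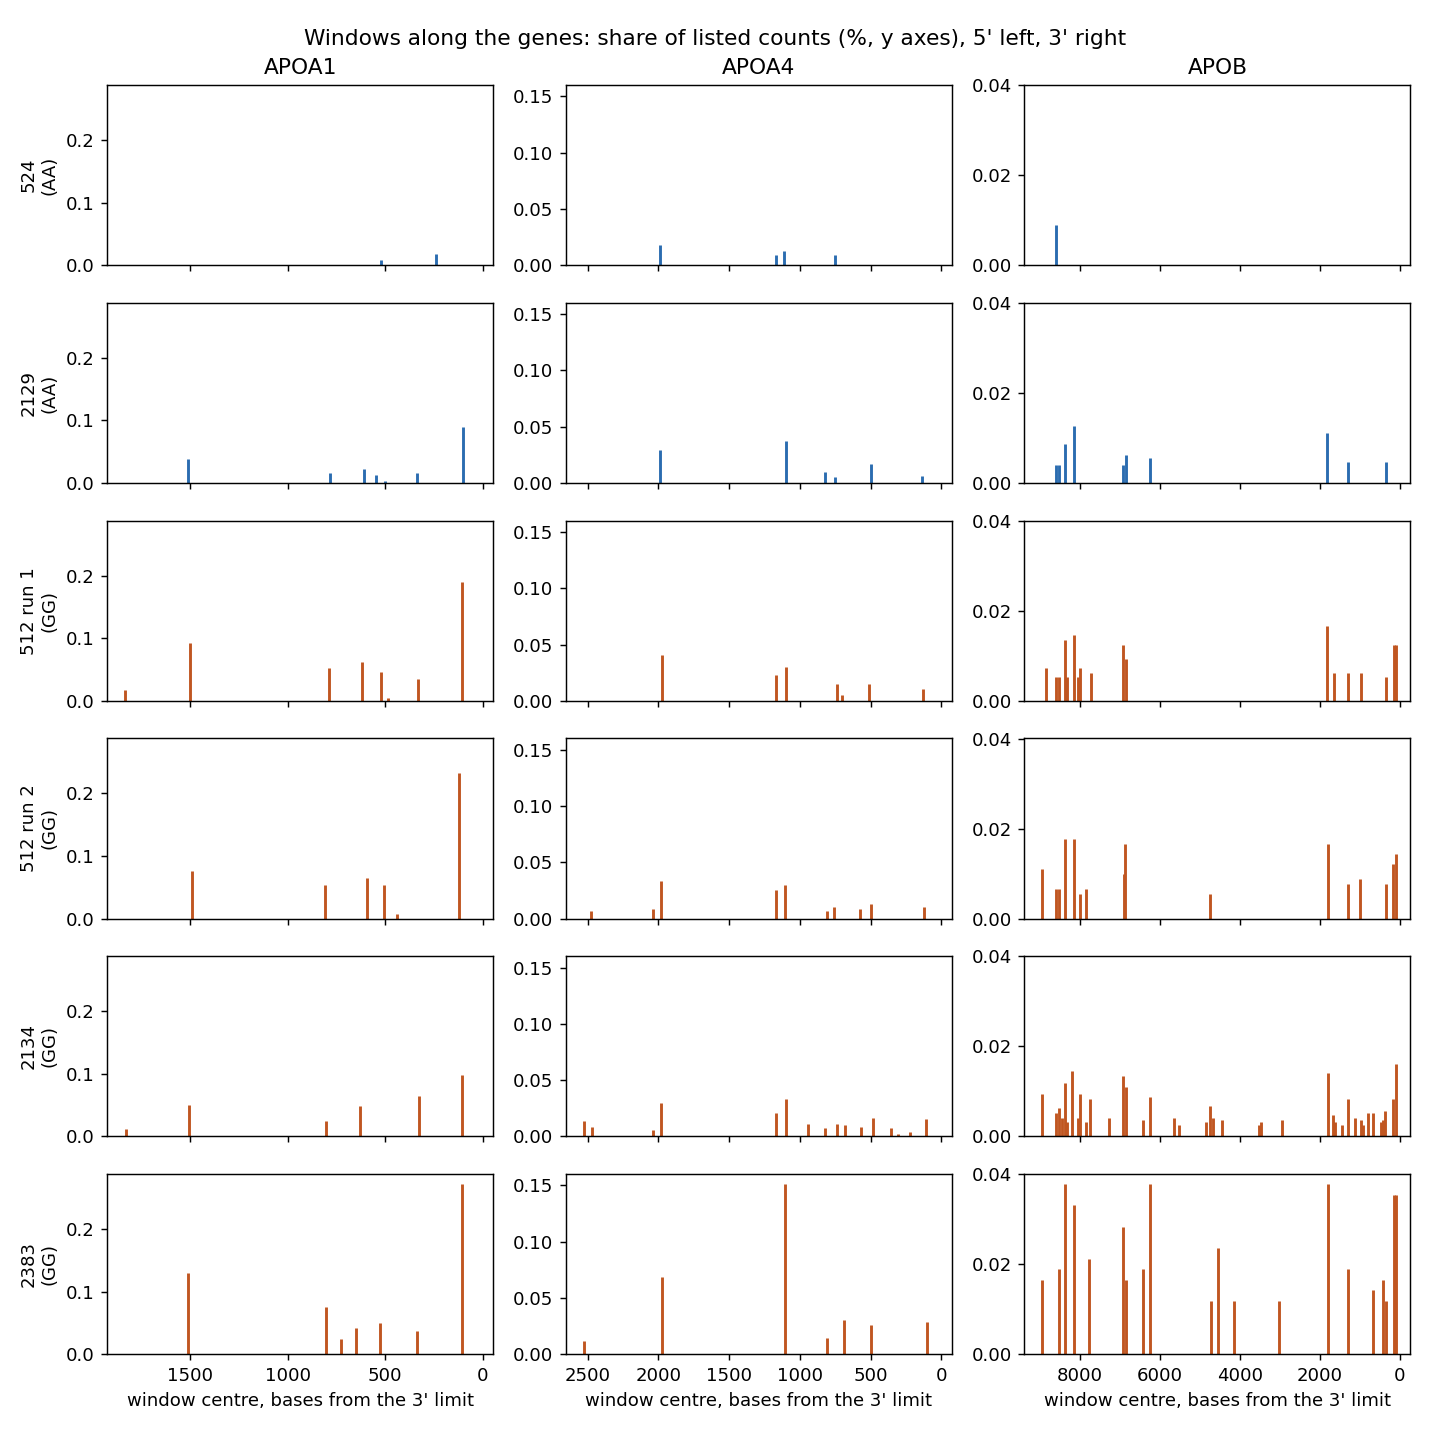
Windows of APOA1, APOA4 and APOB (columns) in each library (rows), by distance of the window centre from the 3′ limit of the gene's windows (x axis, bases, 3′ to the right) and share of listed counts (y axis, percent, 1 scale per gene); blue is AA and orange GG. APOB has 1 window in piglet 524 and 10 in 2129 against 16 to 40 in the GG libraries, while APOA1 keeps its peak at the 3′ end in all libraries but 524.

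Within a site, windows of separate libraries started closer together in APOB than in APOA1. Among sites listed in at least 3 piglets, the starts of a site spread over a median of 3.5 bases in APOB (14 sites, 1 to 24), 16 in APOA4 (8 sites, 4 to 38) and 22.5 in APOA1 (6 sites, 12 to 41). Because a gap of more than 20 bases between starts opens a new site, larger shifts between libraries are not in these values. How the windows were set around the reads is not given in the sources used here.

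The balance between the genes was not the same in all piglets. In CPM, computed over the listed total, per kilobase covered by windows, APOA1 was at 200 and 1491 in AA piglets 524 and 2129, 3744 and 3671 in the runs of 512, 2233 in 2134 and 4722 in 2383. On this scale APOA4 was at 267 and 587 in AA, 769 and 853 in 512, 1154 in 2134 and 1838 in 2383. APOB was lowest in every library, at 15.3 and 113 in AA, 271 and 297 in 512, 422 in 2134 and 791 in 2383. APOA1 was thus first in every library other than 524, where APOA4 was. The ratio of APOA4 to APOB counts was 5.40 and 1.61 in AA against 0.722 to 0.890 in the GG libraries, without overlap. The 5.40 rests on 27 and 5 counts, and how many other pairs of features separate the groups by their ratio was not counted. Median counts per window were 5 to 8.5 in APOB and 6 to 20 in APOA4, where the listing minimum was 5. What that minimum did to the ratio was not tested. The ratio of APOA1 to APOA4 was 0.556 and 1.89 in AA and 1.44 to 3.62 in GG, and the groups overlapped. They also overlapped in the ratio of APOA1 to APOB. This was 3 and 3.05 in AA, 3.185 and 2.845 in the runs of 512, 1.22 in 2134 and 1.38 in 2383. No test was made of these ratios.

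Regions with the most similar pattern over the 5 piglets were sought among those with at least 10 listed counts in every piglet, by the root mean square distance between centred log2 scaled counts. For APOB, 621 features could be compared, and the nearest were a region at chr14:28259661-28261397 (distance 0.25), APOA4 (0.34) and a region at chr4:134499429-134499818 (0.47). APOB itself did not reach that minimum in piglet 524, where its value came from 5 listed counts and 22 filled in. Its distances therefore depend on the fill. For APOA4 the nearest of 620 were the chromosome 4 region (0.18), the chromosome 14 region (0.25) and a region at chr15:121270582-121272345 (0.34). For APOA1 they were chr12:56212926-56213897 (0.69), the chromosome 14 region (0.74) and APOA4 (0.76), all farther away. The chromosome 14 region, near all 3 genes, had scaled counts of 43.4 and 117 in AA and 224, 489 and 246 in GG piglets 512, 2134 and 2383. None of these regions was named here.

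The 9 windows between APOA4 and APOA1 made 3 sites over chr9:43007172-43008681 and had 0 and 7 counts in piglets 524 and 2129, 42 and 40 in the runs of piglet 512, 30 in 2134 and 0 in 2383. The groups overlapped, since GG piglet 2383 had none. The log2 difference was 1.44 (SE 0.81, limma adjusted p = 0.537) and 2.21 (SE 0.49, limma adjusted p = 0.0632) with the sib pair as a block. Neither AA piglet reached 10 counts in these windows, so they were tested only because GG piglets did. Both differences depend on the fill and cannot test the groups. In 2383 a count of 0 in these windows stands beside 140 for APOA4 and 267 for APOA1 on either side. APOC3, an inhibitor of lipoprotein lipase, lies at this place in the RefSeq order, but the longest open frame there was 97 codons and the windows were not matched to it.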

How the data were processed

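Small RNA of duodenum was listed for 5 piglets in 6 libraries. The authors deposited, per the file headers, a whole-number count for each stretch of 201 genomic bases with at least 5 counts, of another kind than a table of counts per feature. How reads were aligned and filtered, and to which build, is not given in the sources used here. Windows were assigned to genes by fixed intervals, and overlapping windows were merged into 24665 regions.

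Counts were scaled by TMM (30% of ratios and 5% of abundances trimmed, ratios from regions listed in every piglet), with size factors of 0.760, 1.03, 1.76, 1.13 and 0.642 for piglets 524, 2129, 512, 2134 and 2383. Each unlisted region received 2 counts, and any feature that reached 10 listed counts in 2 or more piglets was fitted with limma 3.58.1 (R 4.3.3, mean-variance trend) on log2(scaled count + 1), a scale that understates differences of low features. Adjusted p is by the Benjamini-Hochberg method over all features, and a call is an adjusted p under 0.05. The script was tested on simulated data. Shares used SciPy 1.17.1; sequences were handled with Biopython 1.88 and Python 3.11.15 with NumPy 2.4.6, and plots were drawn with matplotlib 3.10.9. A whole-mitochondrion record present in 4 libraries was kept in totals only. The planned edgeR model needs counts without a minimum and was not run.

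The sib pairs come from the labels, which name full sibs. Named in the text were the 3 genes, APOC3 for windows between them, and for each gene the 3 features nearest in pattern; sites and single regions were picked after their values were seen. Lists of lipid-absorption genes and cell type markers could not be matched to windows without protein or annotation tables and were not analysed here. The members and lists were chosen with earlier results of these data known.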

Additional observations from a re-analysis of the deposited data

How the results depend on the processing

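No difference of the 3 genes changed direction under any of the settings run. Scaled by total listed counts alone, APOA1 passed (log2 difference 2.44, limma adjusted p = 0.0309) and 44 features were called, 29 higher and 15 lower in GG; the median of all features then moved by -0.14, and relative to it the genes stood at 2.38, 1.46 and 2.08 (APOA1, APOA4, APOB) against 2.39, 1.47 and 2.09 with TMM. Without a filter on low counts, 24632 features were tested and 83 called. All 3 genes then passed at unchanged log2 differences of 2.59, 1.67 and 2.29 (limma adjusted p = 6.86e-10, 0.003 and 8.36e-07). Their SE fell to 0.35, 0.37 and 0.37, from 0.87, 0.59 and 0.53 in the main fit. With total listed counts alone it was 0.68 for each. In both settings limma took the SE from the trend over all features. These passes therefore do not weigh each gene's own spread between piglets. With the sib pair as a replicate block 44 features were called and APOB passed at 2.23 (limma adjusted p = 0.0249); the block changed no other call among the 3 genes. Leaving out each piglet in turn, the log2 differences ran from 0.87 to 4.24 for APOA1, 0.70 to 2.57 for APOA4 and 1.51 to 3.00 for APOB, with 0 to 4 features called (1 without AA piglet 2129, 4 without GG piglet 2134). The differences of shares then ran from 0.275 to 0.450 percentage points, 0.0998 to 0.192 and 0.167 to 0.314. Taking the highest window in place of the sum lowered the share differences to 0.140, 0.0462 and 0.0129 points (two-sided exact permutation p = 0.2, 0.7 and 0.3); for APOA4 the groups then overlapped, and AA piglet 2129 stood above its GG sib 2134. The totals without the mitochondrial and highest windows, the common minimum and the settings for windows outside the genes were added after the data had been seen; the totals gave share differences of 0.396, 0.157 and 0.273 points, and the common minimum 0.591, 0.212 and 0.266 points. The edgeR model and the choice of windows by protein match were not run. In the shallowest AA list, that of piglet 524, 7 windows in all stand behind the 3 genes, so that its values rest on 15, 27 and 5 counts.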

Other observations

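A second tract of windows lies on the 5′ side of the listed APOB windows on chromosome 3, from 109054271 to 109076940, in 18 regions. It was found after the data had been seen, lies outside the interval used for APOB and was not named, since no exon table was used. Its listed counts were 18 and 84 in AA piglets 524 and 2129, 132 and 109 in the runs of GG piglet 512, 277 in 2134 and 93 in 2383. As shares these were 0.0320% and 0.0661% in AA and 0.129%, 0.144% and 0.220% in GG piglets 512, 2134 and 2383, without overlap (two-sided exact permutation p = 0.1, the smallest the 10 splits allow). By scaled count, 21.1% of the 2762 features tested separated the groups in the same direction. The log2 difference of the tract was 1.15 (SE 0.35, limma adjusted p = 0.537), at place 387 of 2762. Of its 18 regions, 8 were open from end to end on the plus strand against 0 on the minus strand. Among the regions of the tract with enough counts to test, a single one, at 109067742 to 109067942, went the other way. In it AA piglets 524 and 2129 had 11 and 12 counts and the GG libraries 8, 7, 7 and 0, a log2 difference of -1.09 (SE 0.54, limma adjusted p = 0.533). Without AA piglet 524 the log2 difference of the tract was 0.75.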
